A study of Mus musculus with 2 samples.

Results

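The genes described here encode the heat shock proteins and their co-chaperones. They were taken from the array's annotation by name: symbols starting with Hspa, Hspb, Hspd, Hspe, Hsph, Hsp90, Dnaja, Dnajb or Dnajc, the numbered Bag and Hsf genes, and Chordc1, Stip1, Ahsa1, Ahsa2, Cdc37, Fkbp4, Ptges3 and Stub1. The ER chaperones Hspa5 and Dnajb11 were left out by that rule. It gave 83 genes of the 22180 genes that had a probe set with exactly 1 symbol. Kidney RNA came from male Iah1-WT mice and from male mice with a systemic Iah1 knockout (Iah1-KO), and Iah1 is named for a yeast esterase that splits isoamyl acetate. Both genotypes changed from chow to a high-fat diet when 6 weeks old, stayed on it for 12 weeks with 1 mouse to a cage, and had been fasted for 4 hours when tissue was taken. RNA of 3 mice per genotype was pooled on 1 Affymetrix array, so each value below is 1 pool's value, no spread between mice is known, and no test between genotypes was possible. Neither the strain nor the deleted part of Iah1 is given in the sources used here. The targeted gene itself stood at 9.09 (Iah1-WT) and 3.60 (Iah1-KO) as log2 RMA values.

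Molecular chaperones hold or fold proteins that have not reached, or have lost, their native shape. HSP70 proteins bind exposed hydrophobic stretches in cycles driven by ATP. J proteins, the Dnaj genes, deliver clients and trigger ATP hydrolysis, and exchange factors such as the HSP110 and BAG proteins release the nucleotide and with it the client. HSP90 acts later, on clients such as kinases and steroid receptors, with co-chaperones that hand over the client or set the speed of its cycle. Heat shock factors bind repeated GAA units, the heat shock element, before many of these genes. The cytosol, the ER and the mitochondrion each hold their own HSP70 and J proteins. Tubule cells of the kidney raise heat-inducible chaperones under heat, osmotic stress and ischaemia.

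Promoter windows from RefSeq (build GRCm38.p6), each 300 bases long with 250 bases before the gene's start and 50 after it, were matched by symbol for 69 of the 83 genes, in 85 windows. Bag4, Dnajc2, Dnajc5, Dnajc5b, Dnajc11, Dnajc12, Dnajc18, Dnajc22, Dnajc30, Hsf4, Hsp90aa1, Hspa8, Hspa9 and Hspa13 had no entry. Heat shock elements were searched as 2 units (GAANNTTC or TTCNNGAA) and as 3 units in a row (GAANNTTC followed by NNGAA, or TTCNNGAA followed by NNTTC), which contain the shorter form. Both strands were read. A 3-unit element lay in 7 of the 85 chaperone windows (8.24%) and in 0.603% of all 32851 windows. It was found at 5 of the 69 genes, Chordc1, Hsph1, Hspd1, Hspe1 and Dnajb6. Some bases were counted more than once. The matches of Hsph1 and Dnajb6 lay in windows of more than 1 start, and Hspd1 and Hspe1 shared theirs. The 2-unit form lay in 25.9% of the chaperone windows and in 15.1% of all windows. A match describes letters in these windows and no bound factor.

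The windows below are those of the cytosolic genes furthest higher in the Iah1-KO pool with a 3-unit match, of the mitochondrial pair with the same kind of match, and of the inducible HSP70 pair with a 2-unit match. Capitals mark the element, and positions count from the start, with +1 as its first base. Chordc1 covers chr9:18292147-18292285 (plus strand), with 3 overlapping 3-unit matches from -4 to 19. Hsph1 covers chr5:149636288-149636435 (minus strand), with its match from 16 to 28. Counted from another annotated start of Hsph1, whose window is not shown, the same bases lie from 37 to 49. Hspe1 covers chr1:55088028-55088147 (plus strand), with 2 overlapping matches from -89 to -72. Hspa1a covers chr17:34972157-34972276 and Hspa1b chr17:34959239-34959358, both on the minus strand with the match from -104 to -97.
Chordc1: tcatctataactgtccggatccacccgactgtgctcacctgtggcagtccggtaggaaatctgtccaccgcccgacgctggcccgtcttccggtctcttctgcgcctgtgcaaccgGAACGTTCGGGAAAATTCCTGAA
Hsph1: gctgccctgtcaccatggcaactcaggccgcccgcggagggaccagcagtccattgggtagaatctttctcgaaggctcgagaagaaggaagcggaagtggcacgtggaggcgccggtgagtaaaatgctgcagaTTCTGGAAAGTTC
Hspe1: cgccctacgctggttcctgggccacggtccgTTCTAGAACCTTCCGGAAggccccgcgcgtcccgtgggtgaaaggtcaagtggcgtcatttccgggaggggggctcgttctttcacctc
Hspa1a: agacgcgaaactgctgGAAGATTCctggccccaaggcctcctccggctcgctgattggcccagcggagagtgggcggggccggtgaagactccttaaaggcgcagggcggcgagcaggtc
Hspa1b: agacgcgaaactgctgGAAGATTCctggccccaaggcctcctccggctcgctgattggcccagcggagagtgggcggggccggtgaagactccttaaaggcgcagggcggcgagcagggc
Hspd1 lies head to head with Hspe1. A window of Hspd1 shared 285 bases with that of Hspe1, and its 3-unit matches were the same bases of chromosome 1 read on the other strand. The windows of Hspa1a and Hspa1b were identical at 247 of the 250 bases before the start.

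Differences are Iah1-KO minus Iah1-WT on the log2 scale of the deposited RMA values, and where a gene is given 2 values, the first is that of the Iah1-WT pool and the second that of the Iah1-KO pool. Of the 83 genes, 53 (63.9%) had a value of at least 6 in 1 or both pools, the expression floor used here. This was so for 7671 genes (34.6%) overall. The 53 genes had a median difference of -0.02, with 24 above 0 and 29 below, and lay between -0.26 and 0.32. Over all 7671 genes the median was 0.01, and 52.4% lay above 0. Only Chordc1 was at least 1.2-fold higher in the Iah1-KO pool, and 0 of the 53 were at least 1.2-fold lower. Among all genes at the floor these shares were 5.36% and 3.77%. At least 1.5-fold, 0 of the 53 were higher or lower, against 0.222% and 0.209% of all genes. In bulk tissue, fewer cells of a type and less RNA per cell cannot be told apart.

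For a scale that fits each gene's level, a robust SD was taken over the differences of the 500 genes nearest in mean level. It describes scatter over genes on these 2 arrays and not the spread between mice, and ran from 0.09 to 0.19 for the 53 genes. Of them, 34 (64.2%) lay within 1 such SD of 0, close to the 66.0% of all genes. At least 2 such SDs from 0 were Hsph1 and Chordc1 (higher) and Dnaja2 (lower), which is 3 of 53, against 7.10% of all genes. By both measures the chaperone genes lay about as near to 0 as genes in general.

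**Figure D1:**
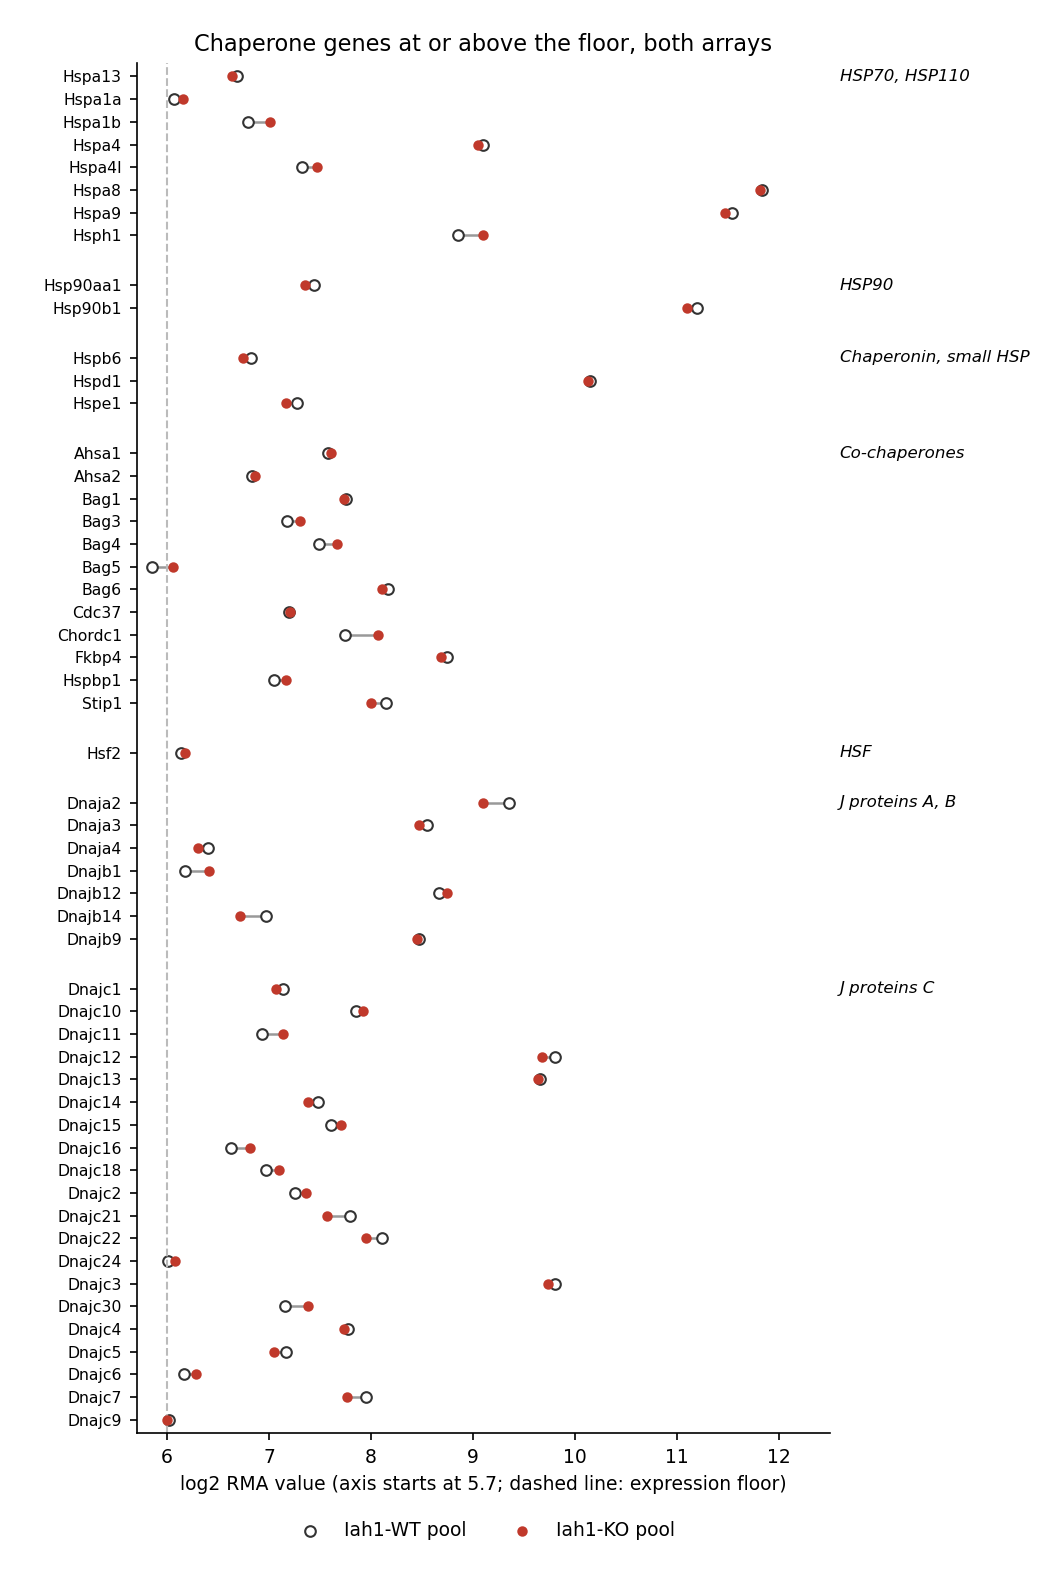
The log2 RMA value of each of the 53 chaperone genes at or above the floor is shown on the horizontal axis for the Iah1-WT pool (open circles) and the Iah1-KO pool (filled circles), 1 array each, by protein class. Most pairs overlap; Chordc1 (7.75 and 8.07) and Hsph1 (8.85 and 9.10) are separated to the right, and Dnaja2 (9.36 and 9.10) to the left.

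**Figure D2:**
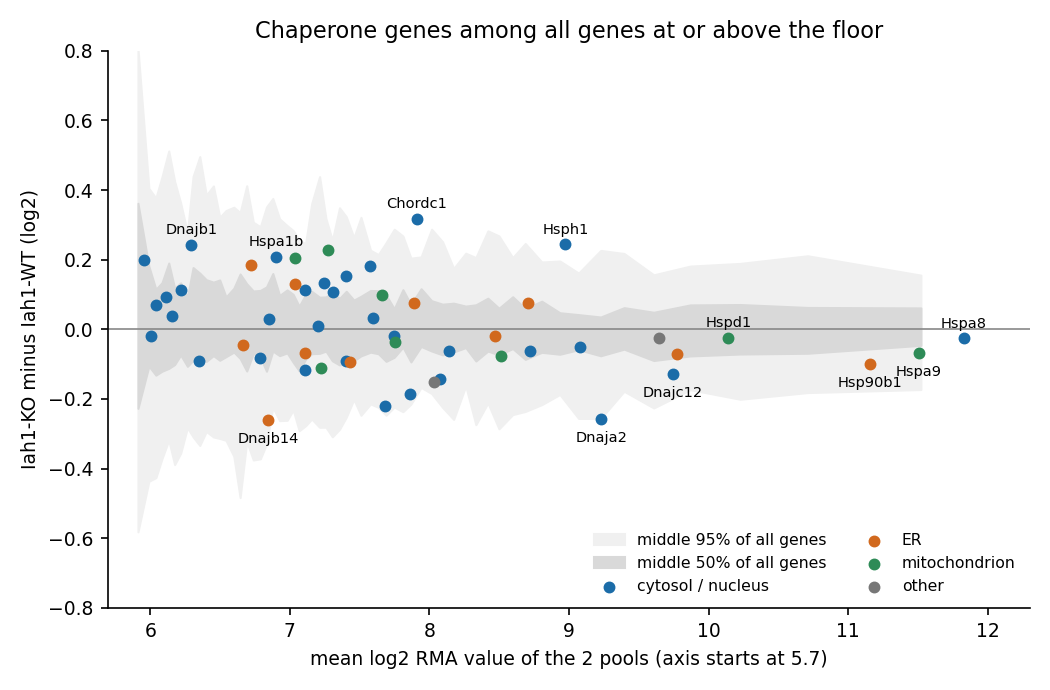
The difference between the pools (log2, vertical axis) is plotted against the mean log2 value of both pools for the 53 chaperone genes, over bands that hold the middle 50% and 95% of all genes in 60 groups of similar level. Chordc1 at 0.32 and Hsph1 at 0.24 stand above the 95% band at their level, Dnaja2 at -0.26 lies just below it, and the bright genes Hspa8, Hspa9, Hspd1 and Hsp90b1 lie between -0.10 and -0.02.

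Among the cytosolic HSP70 genes, the constitutive Hspa8, which serves folding and clathrin uncoating in all cells, had 11.84 and 11.82. Its other 3 probe sets, which are dimmer, differed by 0.13, 0.14 and 0.20, so the direction of Hspa8 depends on the probe set. The heat-inducible Hspa1b had 6.80 and 7.01, a difference of 0.21. Its near-identical neighbour Hspa1a had 6.07 and 6.16, a difference of 0.09. Probes can be shared between these paralogs, so the split between them is uncertain. Both lay above 0, at 1.40 and 0.49 local SDs. The third gene of that cluster on chromosome 17, Hspa1l, is known mainly from testis and was below the floor.

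HSP110 proteins release nucleotide from HSP70 and take part in pulling aggregates apart. Hsph1, the heat-inducible member, had 8.85 and 9.10, which is 1.18-fold higher and 2.74 local SDs. It ranked 485 from the top among the 7671 genes. Hspa4l had 7.32 and 7.48, a difference of 0.15. The constitutive Hspa4 had 9.10 and 9.05, a difference of -0.05. The HSP110 genes thus differed among themselves, with the inducible Hsph1 furthest higher. Hspbp1, another exchange factor of HSP70, had 7.05 and 7.17.

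HSP90 was measured by 2 of the genes chosen by name, and both were slightly lower in the Iah1-KO pool. Hsp90aa1, the stress-responsive cytosolic form, had 7.44 and 7.35, a difference of -0.09. Hsp90b1, the ER form that folds integrins and Toll-like receptors, had 11.20 and 11.10, a difference of -0.10. Trap1, the mitochondrial HSP90, lies outside the name rule and had 9.62 and 9.65, a difference of 0.02. The constitutive Hsp90ab1 was not analysed here.

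The co-chaperones of HSP90 held the gene furthest higher. Chordc1, a zinc-binding partner of HSP90 with CHORD domains, had 7.75 and 8.07. That is 1.25-fold higher, 2.69 local SDs, and rank 240 from the top among 7671 genes. Stip1, the adaptor that joins HSP70 to HSP90, had 8.15 in the Iah1-WT pool and was furthest lower of this class, with a difference of -0.14. Fkbp4, an immunophilin that moves steroid receptors, had 8.75 and 8.69. Ahsa1 and Ahsa2, which speed up the ATPase of HSP90, differed by 0.03 each, and Cdc37, the adaptor for kinases, by 0.01. Ptges3 (p23), which slows the cycle, was below the floor. Of the 6 co-chaperones at the floor, Chordc1 alone was at least 1.2-fold higher, beside 5.36% of all genes. With 6 genes, nothing is read from that count. Within 1 local SD of 0 lay 4 of the 6 (66.7%), close to the 66.0% of all genes.

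BAG proteins link HSP70 to release, autophagy or degradation of the client. Bag4 had 7.49 and 7.67, a difference of 0.18, while its dim second probe set differed by -0.46. Bag3, which is heat-inducible and directs clients to autophagy, had 7.17 and 7.31, a difference of 0.13. Bag5 had 5.86 and 6.05, so that its Iah1-KO value alone was at the floor. Bag1 and Bag6 differed by -0.02 and -0.06. In all, 3 members were thus higher and 2 lower, and 2 of the 5 lay within 1 local SD of 0, beside the 66.0% of all genes. This tally depends on the floor. Bag5 entered it through its higher Iah1-KO value, and Bag2, with 5.99 and 5.85, a difference of -0.15, stayed just below the floor. Of the heat shock factors, Hsf2 was at the floor with 6.14 and 6.17. Hsf3, Hsf4 and Hsf5 were below it, and Hsf1, the main factor of the heat response, was not analysed here.

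Of the 40 J protein genes, 27 were at the floor, with a median of -0.02, 11 above 0 and 16 below. Dnajb1, the heat-inducible partner of HSP70, had 6.17 and 6.41, a difference of 0.24, or 1.18-fold. Dnaja2, a constitutive partner of Hspa8, went the other way with 9.36 and 9.10, a difference of -0.26 and -2.94 local SDs. Dnaja4 had 6.40 and 6.31. All 3 members of class A at the floor (Dnaja2, Dnaja3 and Dnaja4) were lower in the Iah1-KO pool, although Dnaja3 differed by 0.13 and 0.22 in its 2 dimmer probe sets.

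Other cytosolic and nuclear J proteins lay on both sides of 0. Dnajc21, a ribosome biogenesis factor, had 7.79 and 7.57, a difference of -0.22. Dnajc7, which carries TPR repeats and binds HSP70 and HSP90, had 7.95 and 7.76, a difference of -0.19. Dnajc12, a co-chaperone of aromatic amino acid hydroxylases, had 9.81 and 9.68. Dnajc5, the cysteine string protein of vesicles, had 7.17 and 7.05. Those 4 genes lay between -1.76 and -0.87 local SDs. Higher in the Iah1-KO pool were Dnajc6 (auxilin, for clathrin uncoating) by 0.11, the ribosome-associated Dnajc2 by 0.11 and Dnajc24 by 0.07. Dnajc9, a histone chaperone, differed by -0.02, and its Iah1-WT value alone was at the floor. The endosomal Dnajc13 and the membrane protein Dnajc22, placed in none of the 3 compartments, differed by -0.02 and -0.15.

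In the ER, 11 of 12 genes were at the floor, with a median of -0.04 and 7 below 0. Dnajb14, a membrane protein whose J domain faces the cytosol, had 6.98 and 6.72, a difference of -0.26 that was the lowest of all 53. Its second probe set, which is dim at 2.39 and 2.33, differed by -0.06, and the mean over both was -0.16. Its close relative Dnajb12 had 8.67 and 8.74, a difference of 0.08. Of the J proteins of the lumen, Dnajc3 had 9.80 and 9.73, Dnajb9 8.48 and 8.46, and the reductase Dnajc10 7.85 and 7.92. Dnajc1, Hspa13 and Dnajc14 differed by -0.07, -0.04 and -0.09, and Dnajc18 and Dnajc16 by 0.13 and 0.18. The genes left out by the rule were close to these. Hspa5, the ER HSP70, had 8.75 in both pools, and Dnajb11 had 8.18 and 8.26.

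Windows of Hsp90b1 and Dnajc3 held the ER stress element, CCAAT followed after 9 bases by CCACG, which contains a CCAAT box and was searched on both strands. It lay in 2 of the 85 chaperone windows (2.35%) and in 0.119% of all windows, and they are shown because only these 2 of the 69 chaperone genes with a window had it. A CCAAT box in any setting lay in 37.6% and 37.4%. Hsp90b1 covers chr10:86705445-86705656 (minus strand), with 2 matches between -212 and -89, and Dnajc3 covers chr14:118937812-118937931 (plus strand), with the match from -105 to -87, in capitals.
Hsp90b1: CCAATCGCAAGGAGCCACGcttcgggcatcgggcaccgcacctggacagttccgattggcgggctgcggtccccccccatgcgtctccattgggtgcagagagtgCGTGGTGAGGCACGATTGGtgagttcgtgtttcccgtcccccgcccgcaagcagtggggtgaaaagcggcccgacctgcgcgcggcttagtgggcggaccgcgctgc
Dnajc3: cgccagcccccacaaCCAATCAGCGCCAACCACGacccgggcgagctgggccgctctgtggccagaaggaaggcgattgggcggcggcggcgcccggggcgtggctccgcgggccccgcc
Both genes were slightly lower in the Iah1-KO pool, at -0.10 and -0.07.

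In the mitochondrion, 8 of 9 genes were at the floor, with a median of -0.03. Of the folding machinery of the matrix, Hspa9, Hspd1, Hspe1 and Dnaja3 were close to 0 or slightly lower in the Iah1-KO pool. Other mitochondrial chaperones and proteases, given below, were above 0 in 8 of 12. Hspa9, the matrix HSP70 that also drives protein import, had 11.54 and 11.47. Hspd1, which forms the HSP60 chaperonin barrel, had 10.15 and 10.13. Hspe1, which forms its lid, had 7.28 and 7.16, a difference of -0.11. Dnaja3, the J protein partner of Hspa9, had 8.55 and 8.48. The J proteins Dnajc30, Dnajc11 and Dnajc15 stood on the other side. Dnajc30, which is tied to the respiratory chain, had 7.16 and 7.39, a difference of 0.23 and 1.72 local SDs. Dnajc11, an outer membrane protein that binds the cristae-organising complex, had 6.93 and 7.14, a difference of 0.21. Dnajc15, of the import motor, had 7.61 and 7.71. Dnajc4 differed by -0.04.

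Small heat shock proteins hold unfolded clients without ATP. Of 6 measured members, Hspb6, which is typical of muscle, was alone at the floor, with 6.82 and 6.74. Hspb1 had 4.93 and 5.14 in the brighter of its probe sets, and the dimmer differed by -0.13.

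The 30 genes below the floor had a median difference of -0.02. They lay between -0.46 (Dnajb5) and 0.37 (Hspa12a). Dim probe sets scatter more, and none of these values is shown to be above background. Hspa12a, an atypical HSP70, had 5.46 and 5.82. Others within 0.5 of the floor were Dnajc28 at 0.22, Dnajc8 at 0.12, Dnajb6 at 0.09, Dnajc25 at 0.04, Hspa14 at -0.02, Hspbap1 at -0.06 and Bag2 at -0.15. Hspb1 and Dnajb5 were named after their values were seen.

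Comparing compartments, the 32 cytosolic or nuclear genes had a median of 0.02, with 17 above 0 and 15 below. The ER median was -0.04 (4 above, 7 below) and the mitochondrial median was -0.03 (3 above, 5 below). The cytosolic median exceeded that of the ER by 0.06 and that of the mitochondrion by 0.05. Without membrane, vesicle-bound or less certain locations, the medians were 0.03 over 31 cytosolic genes, -0.06 over 6 ER genes and -0.07 over 5 mitochondrial genes. With a floor of log2 7 the medians drew together, at -0.02 (cytosol and nucleus), -0.04 (ER) and -0.03 (mitochondrion). As means the values were 0.02, -0.02 and 0.03, so that the mitochondrial value was above the cytosolic one. The order of the compartments thus depends on the summary used. Genes of a compartment are not replicates, and with 1 array per genotype no test of these small gaps was possible. The cytosolic genes spanned -0.26 to 0.32, far more than the gap between compartments. The 2 genes furthest higher among all 53 (Chordc1 and Hsph1) and the next (Dnajb1) were cytosolic. At the low end, the lowest was Dnajb14 of the ER and the next was the cytosolic Dnaja2, at -0.26 each.

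**Figure D3:**
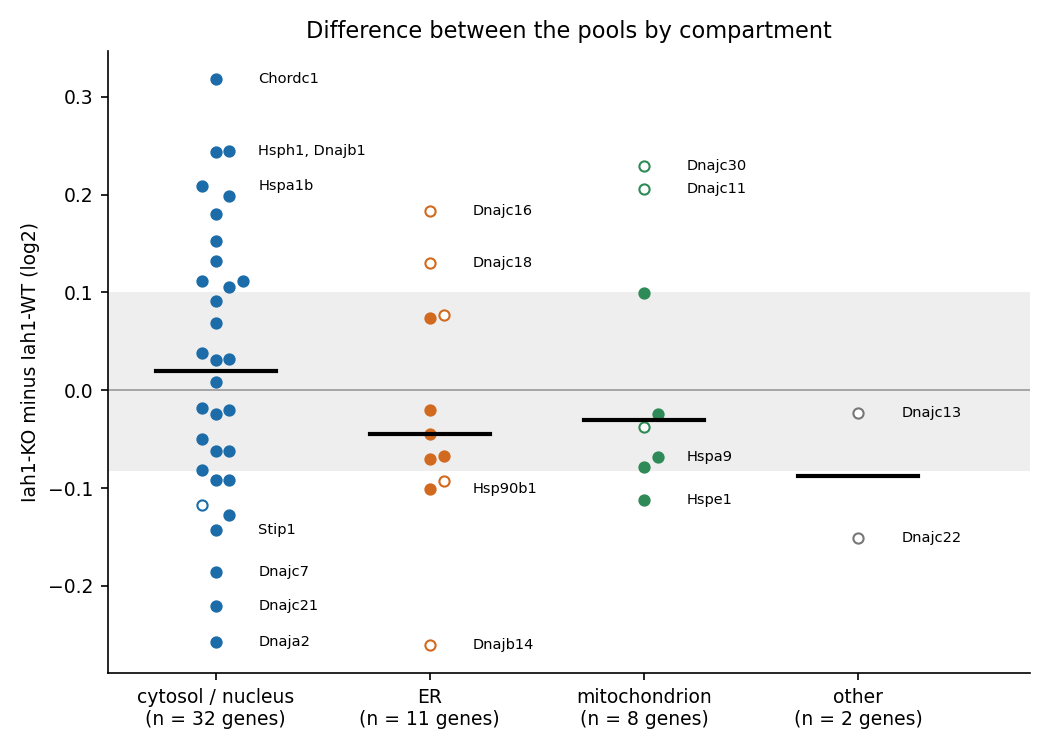
Each point is a chaperone gene at or above the floor, placed by compartment, with its difference between the pools (log2) on the vertical axis; bars are medians, open points are membrane, vesicle or less certain locations, and the grey band holds the middle 50% of all genes. The medians are 0.02 (cytosol and nucleus), -0.04 (ER) and -0.03 (mitochondrion), with wide overlap.

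The genes most often named as heat-inducible targets of HSF1 were also taken as a list, which was chosen with earlier results of these data known. Of 17 measured, 14 were at the floor, with a median of 0.06, 8 above 0 and 6 below. The other 39 chaperone genes had a median of -0.02, with 16 above 0 and 23 below. Within the list the genes were split. Chordc1, Hsph1, Dnajb1, Hspa1b, Hspa4l, Bag3 and Hspa1a differed by between 0.09 and 0.32, and Ahsa1 by 0.03. Hspa8, Hspd1, Fkbp4, Hsp90aa1, Hspe1 and Stip1 differed by between -0.14 and -0.02. The list thus also holds Hspa8, named above as constitutive. Of the list, 1 gene of 14 was at least 1.2-fold higher, beside the 5.36% of all genes.

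Genes with the heat shock elements shown above lay on both sides of 0. With a 3-unit element in the window, Chordc1 and Hsph1 differed by 0.32 and 0.24, and Hspe1 and Hspd1 by -0.11 and -0.02. Dnajb1, at 0.24, had no match of either form in its window. Of the 41 genes at the floor with a window, the 12 with a 2-unit match had a median of 0.04, with 7 above 0. The other 29 had a median of -0.02, with 12 above 0. The 12 are not separate cases. They hold Hspa1a and Hspa1b, with near-identical windows, and Hspd1 and Hspe1, whose matches are the same bases. Cdc37, at 0.01, is among the 7, and its sign changed on centring and on loess correction.

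Other chaperone genes, from lists that also were chosen with earlier results known, gave the following values at the floor. The CCT chaperonin, which folds actin and tubulin, had a median of -0.08 over 8 subunits, with 7 below 0, and Cct4 (-0.17), Cct6a (-0.12) and Tcp1 (-0.11) were furthest. Prefoldin, which delivers to CCT, had a median of -0.14 over 5 subunits, with Vbp1 at -0.26, Pfdn1 at -0.19 and Pfdn6 at 0.19. Of these 13 subunits 0 were at least 1.2-fold higher or lower, beside 5.36% and 3.77% of all genes, and Vbp1 lay just inside that threshold. Further HSP90 and HSP70 co-chaperones had a median of 0.05 over 17 genes (Hspbp1, given above, among them), of which 2 (11.8%) were at least 1.2-fold higher, beside the 5.36% of all genes. With so few genes, nothing is read from that share. These were the myosin chaperone Unc45a (6.14 and 6.47) and Fkbp5 (6.76 and 7.08), an immunophilin induced by glucocorticoids. The next was Nudcd2 at 0.26. Fkbp5 and its relative Fkbp4, a member, thus lay on opposite sides of 0, at 0.31 and -0.06.

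The ER chaperone list, with Hspa5 and Dnajb11, had a median of -0.01 over 13 genes, with Sil1, the exchange factor of Hspa5, at 0.21, Sec63 at -0.21 and Creld2 at 0.18. Other mitochondrial chaperones and proteases (12 genes) had a median of 0.03, with the unfoldase Clpx at -0.21, Grpel1, the exchange factor of Hspa9, at 0.14 and Htra2 at 0.13. Proteasome subunits had a median of -0.06 over 23 genes, with 16 below 0 and all between -0.16 and 0.09. Further genes listed as heat-inducible, Hspa5 among them, had a median of 0.06 over 12 genes. In that list Dedd2 (6.14 and 6.52), Cacybp at 0.17 and Sqstm1 at 0.12 were furthest. Of 3 listed RNA-binding proteins that respond to temperature, 2 were measured. The cold-inducible Cirbp had 6.20 and 5.92, a difference of -0.28, and its Iah1-WT value alone was at the floor. Srsf5 differed by -0.17. Their local SDs were 0.20 (Cirbp) and 0.09 (Srsf5), and nothing is read from 2 genes.

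**Figure D4:**
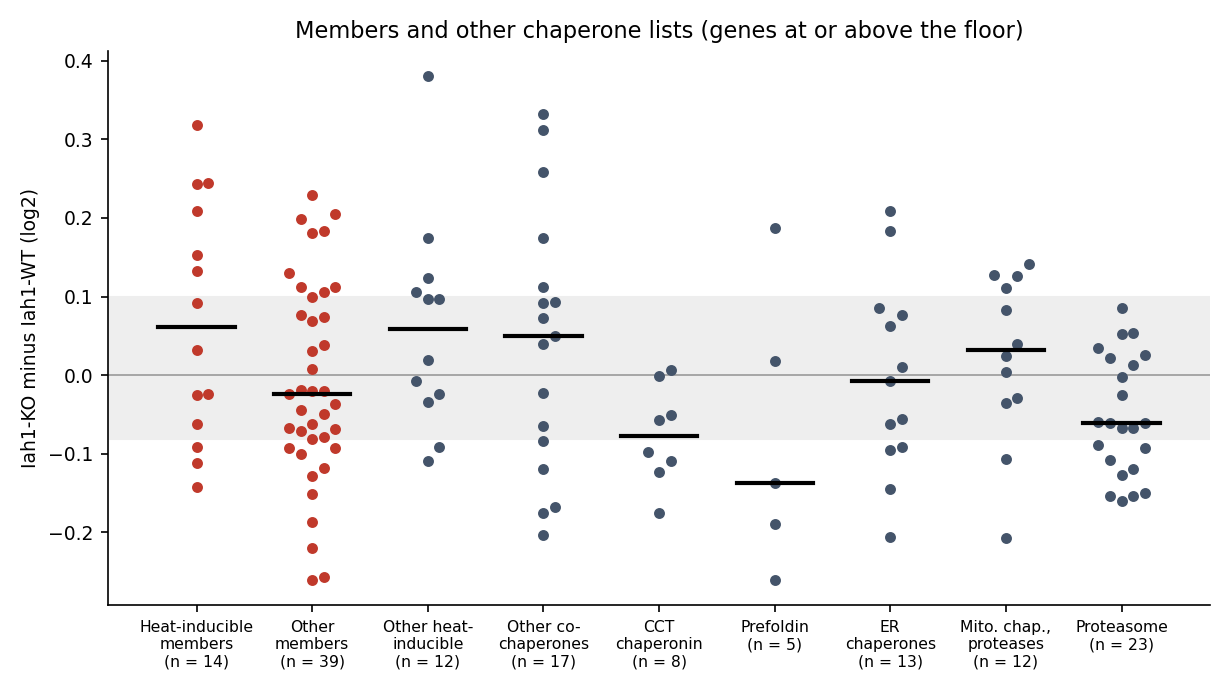
The difference between the pools (log2, vertical axis) is shown for each gene at or above the floor in the heat-inducible and the other chaperone genes (red) and in 7 other lists (dark grey), some of which share genes; bars are medians and the grey band holds the middle 50% of all genes. The heat-inducible genes have a median of 0.06 and the CCT chaperonin one of -0.08.

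As a check of the tissue, 12 of 12 proximal tubule markers were at the floor, while 0 of 6 adrenal and 0 of 4 urothelial markers reached it. The summed level of the 14 marker lists differed by between -0.17 (intercalated cells, 6 of 6 at the floor) and 0.19 on the log2 scale (lymphocytes, 1 of 6 at the floor). Among the lists with at least 4 markers at the floor, loop of Henle markers were above 0 in 0 of 5, with a median of -0.12, and intercalated cell markers in 2 of 6, with a median of -0.13. Of the intercalated cell markers, Atp6v1g3 at -0.81 was furthest from 0, and it was the 1 of 6 at least 1.2-fold lower. Proximal tubule markers were above 0 in 7 of 12 (median 0.02) and distal tubule markers in 3 of 4 (median 0.07). Endothelial markers were above 0 in 7 of 8, with a median of 0.13, and principal cell markers in 4 of 7, with a median of 0.14. Of the principal cell markers, Aqp4 at 0.57 and Aqp2 at 0.49 were furthest from 0, and these 2 of 7 were at least 1.2-fold higher. Macrophage markers were above 0 in 4 of 5, with a median of 0.11, and Lyz2 at 0.63 and Cx3cr1 at 0.41 passed the 1.2-fold threshold. That tally depends on the floor. Cx3cr1, with 5.75 and 6.16, entered it through its higher Iah1-KO value, and Cd68, with 5.97 and 5.74, stayed just below. The 3 macrophage markers below the floor lay between -0.73 and 0.04. Among the immediate early genes, which tissue handling can raise, 7 were at the floor, with a median of 0.03, Dusp1 at 0.38, Ccn1 at -0.32 and Zfp36 at -0.22. The part of cell composition and of tissue handling in the differences of the chaperone genes was not tested.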

How the data were processed

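Each deposited value is the log2 RMA summary of a probe set. The submitters' processing notes name RMA and Affymetrix Expression Console 1.3.0 as the authors' tools. RMA forces arrays to a common distribution, so a shift of most transcripts would not be seen, and it compresses differences of dim probe sets. The 2 arrays hold 41345 probe sets. Only the 23521 with exactly 1 gene symbol were assigned, and the brightest one was used for each gene. A further 18 probe sets list a chaperone symbol with others, and Dnaja1, Dnajb8, Dnajc17, Dnajc19, Hspb2 and Stub1, found only there, were not analysed here. No scanner intensities were used, and precision is limited by the number of arrays.

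Differences, medians and counts were computed in pandas 2.3.3 (Python 3.11.15, numpy 2.4.6), with statsmodels 0.14.6 for the loess. The steps were tested on simulated data with less scatter and larger shifts than the chaperone genes had here. That test does not cover differences as small as those reported. The floor was a log2 value of 6, and 1.2-fold and 1.5-fold were the thresholds. The local SD is the median absolute deviation times 1.4826. Compartments and roles were assigned from general knowledge. The chaperone genes and lists were chosen with earlier results of these data known. By rule, every chaperone gene at the floor could be named, those below it only within 0.5 of it or beyond 1.5-fold, and at most 3 genes of each other list. Outside that rule, Hspb1 and Dnajb5 are given with values, Ptges3, Hspa1l, Hsf3, Hsf4 and Hsf5 are only named as below the floor, and Hspa5 and Dnajb11 are given as the ER chaperones left out, beside the 3 of their list. Trap1 is also given, as the mitochondrial HSP90, beside the 3 genes of its list. Alternatives were other floors, centring, a loess correction (span 0.3), the mean over probe sets, means for medians and stricter locations.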

Additional observations from a re-analysis of the deposited data

How the results depend on the processing

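The median over the chaperone genes lay between -0.03 and -0.02 under other floors (log2 5, log2 7 or none), centring, loess correction and the mean over probe sets, and was 0.01 as a mean. The medians of the cytosol and the ER moved by less than 0.05 in every alternative run, but the cytosolic median was -0.02 with a floor of log2 7 and -0.01 with none. The mitochondrial value was 0.0267 as a mean, against a median of -0.03. Of its 8 genes, 5 lay below 0, down to -0.11, while Dnajc30 and Dnajc11 reached 0.23 and 0.21. Without membrane or less certain locations, the mitochondrial mean was -0.04. Genes at least 1.2-fold higher numbered 2 of 67 with a floor of log2 5 and 3 of 83 with none, and 0 of 53 were at least 1.5-fold higher. Genes at least 1.2-fold lower numbered 1 of 67 with a floor of log2 5 and 3 of 83 with none. After centring they numbered 2 of 53, and after loess correction 1 of 53. Dnajb14 and Dnaja2, at -0.26 each, lie just inside that threshold. The matching shares of all genes under other floors, centring and loess correction were not computed, so nothing is read from these counts. Centring and loess correction changed the sign of 1 of the 53 genes, Cdc37, and the mean over probe sets that of Bag4, Dnaja3 and Hspa8. No paired analysis was possible because each genotype has 1 array, and leaving out a replicate was not possible either. Dim genes limit what can be seen, since 30 of 83 lay below the floor.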
